A study of Mus musculus with 18 samples.

Results

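A follistatin transgene and an injected receptor, both of which block myostatin, were set against each other in the quadriceps of mice that lack dysferlin. The comparison used 6 of the 18 arrays of the series, 3 labelled F66;Dysf-/- and 3 labelled Dysf-/- with ACVR2B/Fc as the treatment, and the arrays were chosen by these labels alone. F66;Dysf-/- mice carry the F66 transgene, which expresses follistatin (Fst) from a muscle myosin light chain promoter and sits on the Y chromosome, together with loss of both Dysf alleles, and received no agent. The other mice lack both Dysf alleles, carry no transgene and received ACVR2B/Fc, a soluble fusion of an antibody Fc part with the extracellular portion of ACVR2B, the type IIB activin receptor, in 4 weekly injections of 10 mg/kg that began at 6 weeks of age. All mice were males of 10 weeks on a C57BL/6 background. Arrays of untreated Dysf-/- mice, of F66 mice with intact dysferlin, of wt mice injected with ACVR2B/Fc and of untreated wt mice, 3 of each, gave the setting. The transgene acts for life in muscle fibres and the receptor was given in the last weeks only, so agent, duration, injection and breeding cannot be told apart in any difference below.

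Myostatin and the activins are secreted proteins of the TGF-beta family that hold back muscle growth through activin type II receptors and the SMAD proteins. Follistatin binds these ligands outside the cell, and the soluble receptor traps the same class of ligands, so both let fibres grow. Dysferlin is a calcium-sensing membrane protein that takes part in resealing the torn fibre membrane, and its loss leads to a slowly progressing muscular dystrophy. Degenerating muscle takes up macrophages, which clear dead fibre segments, while satellite cells divide and fuse into new fibres and fibroblasts lay down matrix.

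The targeted gene was read first. Dysf had log2 levels of 6.76, 6.79 and 6.92 in F66;Dysf-/- muscle, against 7.10, 6.95 and 7.05 in ACVR2B/Fc-injected Dysf-/- muscle, and the 9 arrays of mice with intact dysferlin all lay higher, between 8.48 and 8.91. The log2 difference between both dysferlin-null groups was -0.21 ± 0.07 (SE; adjusted p = 0.0231), the arrays did not overlap, and the call was lost when each array was centred on its median or when both groups were fitted alone. Fst, the gene of the transgene, had log2 levels of 6.38, 6.12 and 6.24 in F66;Dysf-/- muscle, against 5.58, 5.60 and 5.48 in ACVR2B/Fc-injected Dysf-/- muscle. The log2 difference in Fst was 0.69 ± 0.13 (SE; adjusted p = 0.000669), and F66 muscle with intact dysferlin lay in the same range as F66;Dysf-/- muscle, at 5.92 to 6.33. The fibre genes of the tissue were high in both groups, with a mean log2 level of 11.45 to 11.51 over 12 pan-fibre genes in F66;Dysf-/- arrays and 11.65 to 11.71 in arrays of ACVR2B/Fc-injected Dysf-/- muscle.

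The 2 groups differed in a large part of the genes. Of 20259 genes, limma called 9002 at an adjusted p under 0.05, 44.4% of those tested. In F66;Dysf-/- muscle 3284 genes (16.2%) were higher and 5718 (28.2%) were lower than in ACVR2B/Fc-injected Dysf-/- muscle. The higher genes moved further. Among the called genes, 349 were higher by more than 2-fold and 45 lower, and 36 were higher by more than 4-fold and 0 lower. At an unadjusted p under 0.05, 10786 genes passed. The 3 and 3 arrays did not overlap for 56.4% of all genes, 19.2% with F66;Dysf-/- above and 37.1% with it below.

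The number of lower genes depended on how the arrays were scaled. Taken over every row of the table, the array medians were 5.27, 5.31 and 5.27 on the log2 scale in F66;Dysf-/- arrays and 5.39, 5.44 and 5.41 in arrays of ACVR2B/Fc-injected Dysf-/- muscle, and the median log2 difference of all genes was -0.12. Centring each array on its median brought that difference to 0.02 and the calls to 6751, of which 4825 were higher and 1926 lower, so that 71.5% were higher against 36.5% in the deposited values. All 3284 higher calls were kept under this centring, while 1926 of the lower calls were. Centring raised the difference of every gene by the same amount, so higher calls could hardly be lost by it. That they were kept therefore does not show that they are stable to scaling. Quantile normalizing the arrays again gave 7112 calls, 3231 higher and 3881 lower, or 45.4% higher. Dim genes were seldom called higher. Of the 5287 genes under the median level of all rows, 5.07% were higher and 33% lower in F66;Dysf-/- muscle. Among the brighter genes the shares were 20.1% and 26.5%. Most lower calls were of brighter genes, and a fit without the dim genes still gave 4144 lower calls. For each list with 4 or more members lower, the count of lower members is therefore also given after centring and after a second quantile normalization. Every list count below is to be read beside the 16.2% higher and 28.2% lower over all genes.

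**Figure D1:**
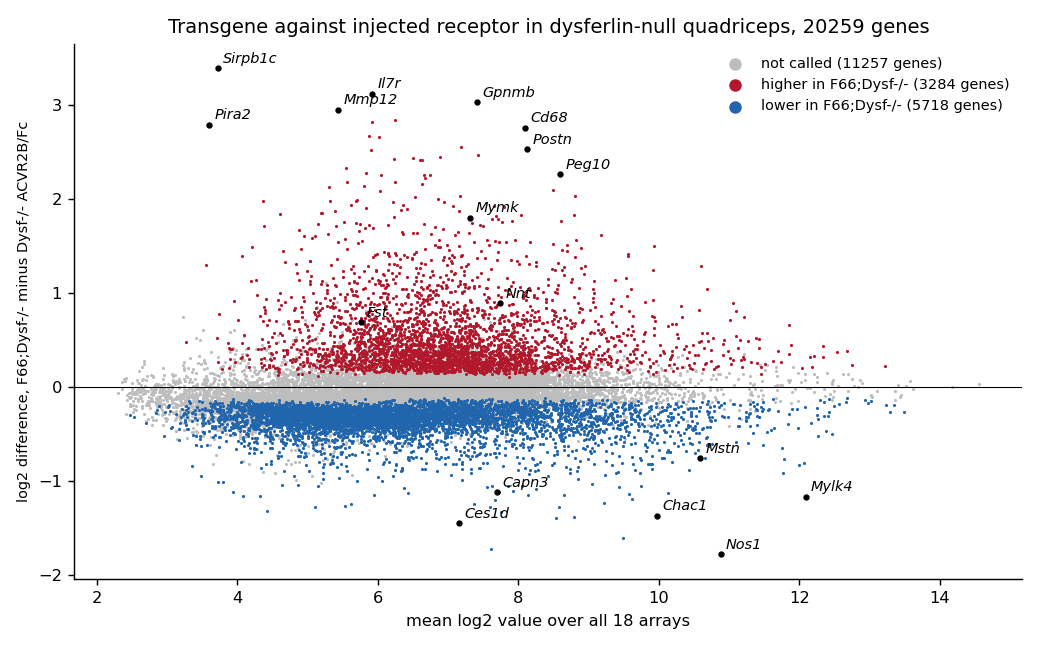
Log2 difference of each of 20259 genes (F66;Dysf-/- minus ACVR2B/Fc-injected Dysf-/-, vertical axis) against its mean log2 level over all 18 arrays (horizontal axis), with the called genes coloured by direction and some named genes in black. The higher genes reached 3.39 and the lower genes -1.78, and the dim genes at the left lay mostly under 0.

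Markers of macrophages and monocytes were higher as a group. All 19 measured macrophage and monocyte markers were called higher in F66;Dysf-/- muscle, with a median log2 difference of 1.71, against -0.12 over all genes. Gpnmb, a membrane glycoprotein of phagocytes loaded with debris, had log2 levels of 10.66, 10.41 and 10.53 in F66;Dysf-/- muscle, against 7.39, 7.46 and 7.65 in ACVR2B/Fc-injected Dysf-/- muscle. The log2 difference was 3.03 ± 0.17 (SE; adjusted p = 4.56e-09), an 8.18-fold difference. Cd68, a lysosomal glycoprotein of macrophages, had log2 levels of 11.03, 10.79 and 10.87 in F66;Dysf-/- muscle, against 7.79, 8.04 and 8.58 in ACVR2B/Fc-injected Dysf-/- muscle. The injected arrays were more spread in Cd68 than the F66;Dysf-/- arrays, with no overlap and a log2 difference of 2.76 ± 0.21 (SE; adjusted p = 1.07e-07). Mmp12, the elastase of macrophages, had log2 levels of 8.42, 8.25 and 8.33 in F66;Dysf-/- muscle, against 5.21, 5.37 and 5.58 in ACVR2B/Fc-injected Dysf-/- muscle, a log2 difference of 2.95 ± 0.14 (SE; adjusted p = 1.95e-09). Atp6v0d2, a subunit of the proton pump of macrophages and osteoclasts, and Cd84, a surface receptor of leukocytes, had log2 differences of 2.81 and 2.52. The markers of recruited monocytes and of resident macrophages stood on the same side: Ccr2, the receptor that draws monocytes from blood, had a log2 difference of 1.05, the pan-macrophage receptor Adgre1 2.41, the mannose receptor Mrc1 1.92, and Cd163, the haemoglobin scavenger receptor and the smallest of the 19, 0.29.

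Summed as a mean over the 19 markers, the log2 level was 8.33 to 8.49 in F66;Dysf-/- arrays and 6.41 to 6.74 in arrays of ACVR2B/Fc-injected Dysf-/- muscle. Untreated Dysf-/- muscle had 6.17 to 6.52. In RNA of whole muscle, a larger number of cells of a type and more RNA per cell cannot be told apart. The part that such a change in cell makeup had in the other differences was not tested.

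Receptors and enzymes through which phagocytes act moved with these markers. Of 15 measured genes of Fc receptor and DAP12 signalling, 11 were higher and 0 lower, with a median log2 difference of 1.08. Tyrobp, which encodes the adaptor DAP12, had log2 levels of 8.90, 8.78 and 9.01 in F66;Dysf-/- muscle, against 6.71, 6.87 and 7.20 in ACVR2B/Fc-injected Dysf-/- muscle, and Fcer1g, the shared gamma chain of Fc receptors, had a log2 difference of 1.82 ± 0.10 (SE; adjusted p = 4.76e-09). The activating Fc gamma receptors Fcgr1, Fcgr3 and Fcgr4 had log2 differences of 1.08, 1.17 and 1.13. Of 6 measured subunits of the phagocyte NADPH oxidase, which makes superoxide, 5 were higher. Cybb, its catalytic subunit, had log2 levels of 9.34, 9.06 and 9.11 in F66;Dysf-/- muscle, against 6.41, 6.80 and 6.99 in ACVR2B/Fc-injected Dysf-/- muscle, and the one that was not called, Rac1, is expressed in most cells and had a log2 difference of -0.13 (adjusted p = 0.484). Among 13 complement genes 12 were higher, with a median of 0.92. The anaphylatoxin receptor C3ar1 led with a log2 difference of 2.47 ± 0.14 (SE; adjusted p = 4.57e-09), ahead of the integrin chain Itgb2 at 1.88 and of C1qb and C1qc, chains of the recognition molecule C1q, at 1.83 and 1.50. Of 8 genes of antigen presentation by MHC class II, 7 were higher, with a median log2 difference of 1.41. The invariant chain Cd74 had log2 levels of 10.80, 10.52 and 10.55 in F66;Dysf-/- muscle, against 8.54, 8.95 and 9.08 in ACVR2B/Fc-injected Dysf-/- muscle, while Cd86, a costimulatory ligand, had a log2 difference of 0.02 and was not called.

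The largest measured log2 difference was in Sirpb1c, a member of the signal-regulatory protein family. It had log2 levels of 6.70, 6.84 and 6.63 in F66;Dysf-/- muscle, against 3.44, 3.37 and 3.20 in ACVR2B/Fc-injected Dysf-/- muscle, so that it stood near the floor of the array in the injected group and near the middle of its range in the F66;Dysf-/- group. The log2 difference was 3.39 ± 0.34 (SE; adjusted p = 1.69e-06), and since no detection calls were used, its size and its rank rest on levels that may not be above background in the injected group. Pira2, a paired immunoglobulin-like receptor, was as low, with log2 levels of 5.76, 5.96 and 6.37 in F66;Dysf-/- muscle, against 3.93, 2.75 and 3.03 in ACVR2B/Fc-injected Dysf-/- muscle. Both families hold near-identical genes whose probes may share signal, so these values are uncertain as to the member. Further genes among the 15 largest rises were the lectin receptor Clec4a3 (2.67 on the log2 scale), the membrane protein Ms4a6d (2.65), the receptor of platelet-activating factor Ptafr (2.55) and C1qtnf3, a secreted C1q-like protein (2.45). Rps15a-ps2, named as a pseudogene of a ribosomal protein, had log2 levels of 9.34, 8.98 and 9.13 in F66;Dysf-/- muscle, against 6.16, 6.14 and 6.63 in ACVR2B/Fc-injected Dysf-/- muscle and shares sequence with its parent gene.

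Chemokines and interferon response genes rose too. Of 22 chemokines and their receptors, 15 were higher and 2 lower, with a median log2 difference of 0.58. Ccl8 and Ccl2, which attract monocytes, had log2 differences of 2.33 ± 0.13 (SE; adjusted p = 6.83e-09) and 1.80 ± 0.15 (SE; adjusted p = 2.29e-07), Ccl3 had 1.98, and the scavenger receptor ligand Cxcl16 had log2 levels of 9.01, 8.88 and 8.85 in F66;Dysf-/- muscle, against 6.45, 6.48 and 7.06 in ACVR2B/Fc-injected Dysf-/- muscle. The neutrophil chemokines Cxcl1 and Cxcl5 were the lower ones, with log2 differences of -0.26 and -0.28, and 0 and 1 members of the list were lower after centring and after a second quantile normalization. Of 15 interferon response genes 11 were higher and 0 lower, with a smaller median of 0.38, led by Oas2, a sensor of double-stranded RNA, with a log2 difference of 0.98 ± 0.11 (SE; adjusted p = 4.23e-06), and by Ifit3 and Oasl2, both antiviral effectors, with 0.81 and 0.79.

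Markers of other blood cells did not follow. Of 16 measured markers of T, B and NK lymphocytes, 1 was higher and 4 lower. Their mean log2 level was 5.43 to 5.51 in F66;Dysf-/- arrays and 5.33 to 5.41 in arrays of injected Dysf-/- muscle, near the median of all rows. That mean includes Il7r, described below, and the median log2 difference of the list was -0.10. Under either other scaling 2 members were higher and 0 lower. The T cell receptor chains Cd3d and Cd3e had log2 differences of -0.29 and -0.10, and the first changed sign in the mean of the gene's rows. Il7r, a receptor chain known from lymphocytes, was the exception. It had log2 levels of 9.13, 8.60 and 8.76 in F66;Dysf-/- muscle, against 5.64, 5.61 and 5.86 in ACVR2B/Fc-injected Dysf-/- muscle, and 12 arrays of the other groups lay between 4.98 and 5.87. The log2 difference in Il7r was 3.12 ± 0.16 (SE; adjusted p = 3.07e-09), the second largest of the genes named. Of 14 neutrophil and mast cell markers 2 were higher and 6 lower, with 3 higher under either other scaling and 0 and 1 lower. The 2 higher in the deposited values were Cpa3, the mast cell carboxypeptidase (1.07 on the log2 scale), and the receptor Csf3r, which monocytes also express (0.88).

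**Figure D2:**
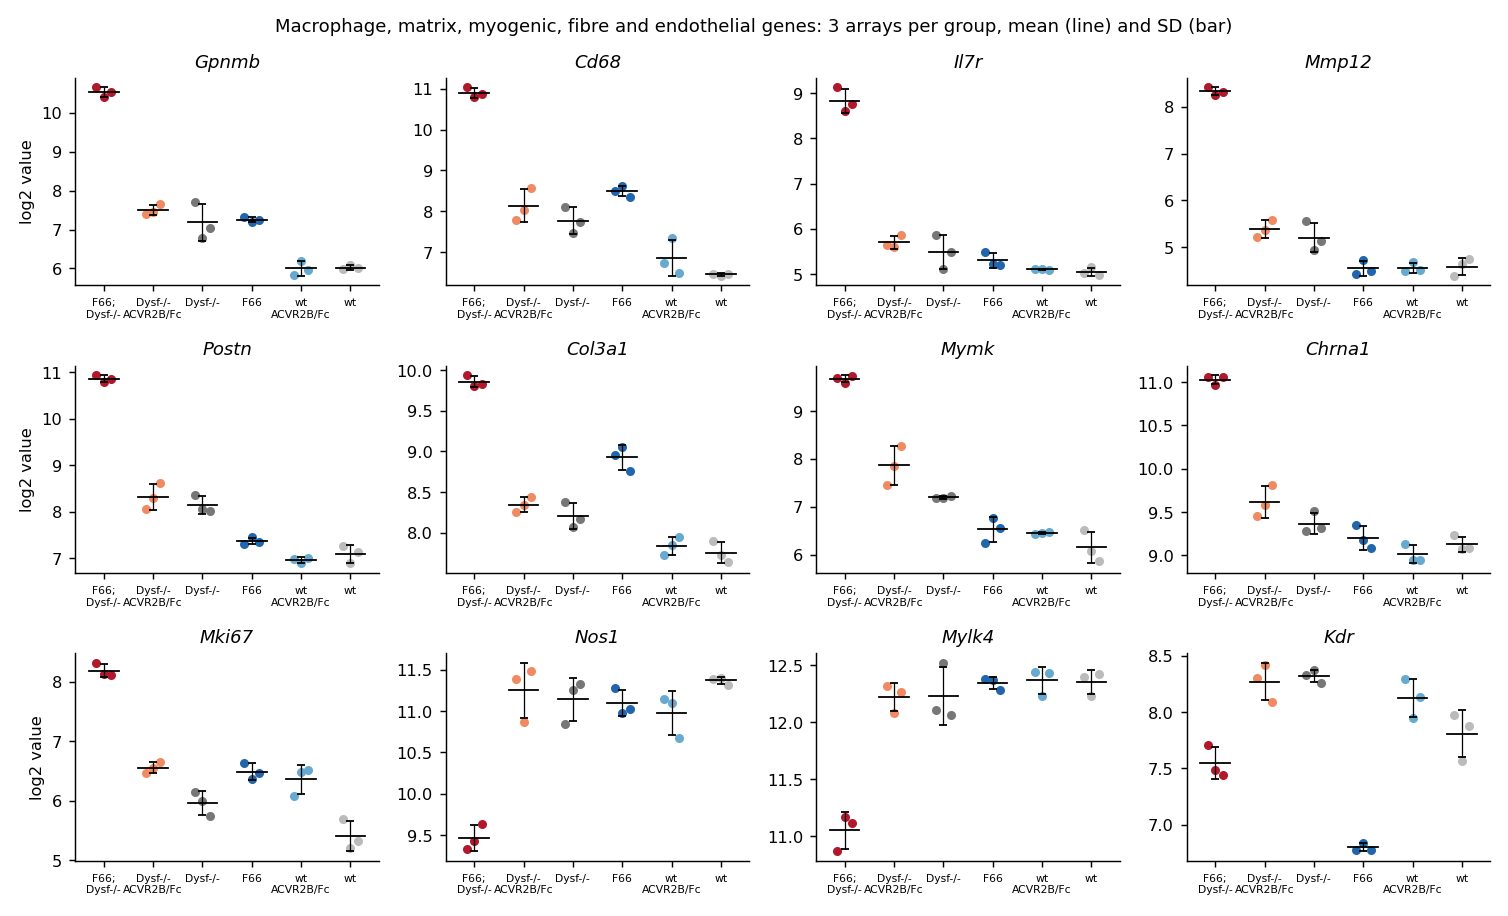
Log2 level (vertical axes, not from 0) of 12 macrophage, matrix, myogenic, junction, cell cycle, fibre and endothelial genes in every array of the 6 groups, with 1 point per array, a line at the mean and a bar for the SD (n = 3). Cd68 stood at 10.79 to 11.03 in F66;Dysf-/- muscle, above the 15 other arrays, and Nos1 stood at 9.33 to 9.64, below the 15 others.

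The enzymes that digest what phagocytes take up were higher as a group. Of 19 lysosome genes 18 were higher and 1 lower, with a median log2 difference of 0.67. The proteases Ctsk, Ctsz and Ctsh had log2 differences of 1.65 ± 0.09 (SE; adjusted p = 6.77e-09), 1.51 ± 0.08 (SE; adjusted p = 3.53e-09) and 1.48 ± 0.08 (SE; adjusted p = 3.76e-09), and Lipa, the acid lipase, had log2 levels of 8.76, 8.58 and 8.65 in F66;Dysf-/- muscle, against 6.82, 7.11 and 7.15 in ACVR2B/Fc-injected Dysf-/- muscle. Npc1, which exports cholesterol from lysosomes, was the lower one, at -0.53 on the log2 scale, against 0.55 for its partner Npc2.

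Genes of lysosomes share a palindromic promoter element, CLEAR, bound by the factors TFEB, TFE3 and MITF. The promoter windows of 15650 tested genes, 250 bases before to 50 after the start of the gene in RefSeq (GRCm38.p6), were searched on both strands for the core of that element, TCACGTG, which 5.46% of them held. It was found in 5 of 16 lysosome windows, in 0 of 13 macrophage windows and in 0 of 7 pan-fibre windows. The stretches that hold it are shown because these are the lysosome genes in which the array and the sequence can be read side by side, with up to 20 bases on either side and nothing beyond the start of the gene but the last 4 bases of the match of Atp6v0d1. Capitals mark the motif or its reverse complement, which overlap in TCACGTGA, and a match is a description of letters and not of a bound site.
Lamp1, chr8:13159079-13159160, plus strand: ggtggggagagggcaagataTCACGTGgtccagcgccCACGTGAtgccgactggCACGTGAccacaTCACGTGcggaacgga
Ctsa, chr2:164833740-164833772, plus strand: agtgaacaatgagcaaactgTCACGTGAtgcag
Ctsd, chr7:142387899-142387946, minus strand: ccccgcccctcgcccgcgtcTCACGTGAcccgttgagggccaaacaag
Atp6v1a, chr16:44139364-44139411, minus strand: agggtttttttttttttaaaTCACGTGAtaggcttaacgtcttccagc
Atp6v0d1, chr8:105566061-105566088, minus strand: agagccaggccctactgcggTCACGTGA
Ctsd held another match further out in its window.

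The 5 genes were among the smaller rises of the lysosome list. Lamp1, the main lysosomal membrane glycoprotein with 4 matches, had a log2 difference of 0.18, the protease Ctsd 0.39, the protective protein Ctsa 0.52, and the proton pump subunits Atp6v1a and Atp6v0d1 0.52 and 0.14, against the list median of 0.67. A further 4 motifs were searched in the same windows. GAGGAAGT, a core bound by the myeloid factor PU.1, was in 1 of 13 macrophage windows and in 3.36% of all. CTANNNNTAG, read by the muscle factor MEF2, was in 3 of 7 pan-fibre windows and in 4.21% of all, and the CArG box of serum response factor in 3 of 7 and 1.61%. The consensus of the NF-kB site was in 2 of 13 macrophage, 4 of 16 lysosome and 2 of 7 pan-fibre windows and in 10.9% of all.

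Genes of the extracellular matrix were the next group. Of 19 collagens 16 were higher and 0 lower, with a median log2 difference of 0.96. Col3a1, a fibrillar collagen of loose scar, had log2 levels of 9.94, 9.81 and 9.83 in F66;Dysf-/- muscle, against 8.25, 8.34 and 8.44 in ACVR2B/Fc-injected Dysf-/- muscle, and the log2 difference was 1.52 ± 0.10 (SE; adjusted p = 2.04e-08). Col1a1 and Col1a2, the chains of the main fibrillar collagen, had log2 differences of 1.25 and 1.38, the collagen VI chains Col6a1, Col6a2 and Col6a3 had 1.14, 0.96 and 1.34, and the basement membrane chains Col4a1 and Col4a2 had 0.35 and 0.25. Of 21 matrix glycoproteins and crosslinkers 20 were higher, with a median of 1.05. Postn (periostin), a matricellular protein of injured tissue, had log2 levels of 10.94, 10.80 and 10.85 in F66;Dysf-/- muscle, against 8.06, 8.29 and 8.62 in ACVR2B/Fc-injected Dysf-/- muscle. The injected arrays differed among themselves by more than the F66;Dysf-/- arrays did, and the log2 difference was 2.53 ± 0.13 (SE; adjusted p = 3e-09). Fn1 (fibronectin) and Tnc (tenascin C) had log2 differences of 1.62 and 1.43.

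Enzymes that cut the matrix rose beside it. Of 23 matrix proteases and inhibitors 19 were higher and 3 lower, with a median log2 difference of 0.94. Beside Mmp12, the collagenase Mmp13 had log2 levels of 6.82, 6.86 and 7.17 in F66;Dysf-/- muscle, against 4.90, 5.05 and 5.34 in ACVR2B/Fc-injected Dysf-/- muscle, Adam8, a protease of leukocytes, stood 3.99-fold higher (adjusted p = 1.52e-09), and Mmp19 had 1.72. The inhibitors were split, with Timp1 and Timp2 higher, at log2 differences of 1.37 and 0.94, and Timp3 and Timp4 lower, at -0.36 and -0.81. Fibroblast markers went the same way, with 11 of 14 higher and 0 lower and a median of 0.59. Fap, a protease of activated fibroblasts, and Mgp, a matrix protein that blocks calcification, had log2 differences of 1.43 ± 0.14 (SE; adjusted p = 1.21e-06) and 1.45 ± 0.14 (SE; adjusted p = 1.77e-06). The mean log2 level of the 14 was 8.38 to 8.42 in F66;Dysf-/- arrays and 7.55 to 7.94 in arrays of injected Dysf-/- muscle.

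Genes of regenerating muscle were higher in F66;Dysf-/- muscle. Of 17 satellite cell and myogenic factors 10 were higher and 2 lower, with a median log2 difference of 0.54. Mymk (myomaker), which fuses myoblasts, had log2 levels of 9.69, 9.59 and 9.74 in F66;Dysf-/- muscle, against 7.46, 7.86 and 8.28 in ACVR2B/Fc-injected Dysf-/- muscle. Myog (myogenin), the factor of terminal differentiation, had log2 levels of 9.13, 9.05 and 9.16 in F66;Dysf-/- muscle, against 7.28, 7.60 and 7.78 in ACVR2B/Fc-injected Dysf-/- muscle. Neither pair of groups overlapped, and the log2 differences were 1.80 ± 0.18 (SE; adjusted p = 1.85e-06) and 1.56 ± 0.12 (SE; adjusted p = 1.78e-07). Ncam1 and Vcam1, adhesion proteins of regenerating fibres and satellite cells, had log2 differences of 1.32 and 1.02. The determination factors Myod1 and Myf5 had 0.85 and 0.54, and Pax7, the marker of quiescent satellite cells, had 0.60 and was not called (adjusted p = 0.0678). The 2 lower members, Pax3 and Calcr, at -0.28 and -0.26, were not lower under either other scaling.

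Genes that are expressed in immature fibres were higher too. Chrna1, Chrnd, Chrng and Chrnb1, the subunits of the fetal acetylcholine receptor, had log2 differences of 1.42 ± 0.10 (SE; adjusted p = 3.28e-08), 1.20 ± 0.12 (SE; adjusted p = 1.26e-06), 0.97 ± 0.11 (SE; adjusted p = 8e-06) and 0.64 ± 0.06 (SE; adjusted p = 4.27e-07). Chrna1 had log2 levels of 11.06, 10.97 and 11.06 in F66;Dysf-/- muscle, against 9.45, 9.58 and 9.81 in ACVR2B/Fc-injected Dysf-/- muscle. Chrne, which replaces the gamma subunit in adult muscle, had a log2 difference of 0.47, and the other 7 of 12 junction genes included 1 more called higher, Etv5. Tnnt2, the troponin T of heart and embryonic muscle, had log2 levels of 8.75, 8.62 and 8.81 in F66;Dysf-/- muscle, against 7.35, 7.42 and 7.56 in ACVR2B/Fc-injected Dysf-/- muscle, and Sln (sarcolipin), which uncouples the calcium pump, had log2 levels of 9.32, 9.33 and 9.38 in F66;Dysf-/- muscle, against 7.50, 7.53 and 7.65 in ACVR2B/Fc-injected Dysf-/- muscle. Ankrd1, a stretch-induced protein of the sarcomere, had a log2 difference of 1.54. The related Ankrd2 was lower, at -0.63. In all, 4 of 12 developmental and stress genes of the sarcomere were higher and 1 was lower.

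Cell cycle genes were higher as well. Of 28 measured, 18 were called higher and 0 lower, with a median log2 difference of 0.43. Mki67, a nuclear protein of dividing cells, had log2 levels of 8.32, 8.14 and 8.11 in F66;Dysf-/- muscle, against 6.47, 6.55 and 6.65 in ACVR2B/Fc-injected Dysf-/- muscle, and the log2 difference was 1.63 ± 0.14 (SE; adjusted p = 3.64e-07). Top2a and Bub1, which act on chromosomes in mitosis, had log2 differences of 1.10 and 0.98. The cyclins of early cell cycle, Ccnd1, Ccnd2, Ccne1 and Ccne2, had log2 differences of 0.19, 0.02, 0.14 and -0.22 and were not called. Which cells divided cannot be read from whole muscle.

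Growth genes and imprinted genes moved in part. Of 14 imprinted growth genes 9 were higher and 1 lower, with a median log2 difference of 0.41. Peg10, a paternally expressed gene derived from a retrotransposon, had log2 levels of 10.21, 9.96 and 9.99 in F66;Dysf-/- muscle, against 7.67, 7.74 and 7.97 in ACVR2B/Fc-injected Dysf-/- muscle, and the log2 difference was 2.26 ± 0.14 (SE; adjusted p = 1.57e-08). F66 muscle with intact dysferlin had still higher Peg10 levels, 11.56, 11.55 and 11.16, beside 7.36, 7.37 and 7.27 in injected wt muscle. Peg3, Mest and Plagl1, imprinted genes that are active in growing tissue, had log2 differences of 1.82, 1.17 and 1.13. The growth factor Igf2 had log2 levels of 9.67, 9.63 and 9.67 in F66;Dysf-/- muscle, against 8.42, 8.57 and 8.83 in ACVR2B/Fc-injected Dysf-/- muscle, a log2 difference of 1.05 ± 0.10 (SE; adjusted p = 1.11e-06). Igf1, chosen after its values were seen, had log2 levels of 8.64, 8.56 and 8.55 in F66;Dysf-/- muscle, against 7.84, 7.99 and 7.86 in ACVR2B/Fc-injected Dysf-/- muscle. In mice with intact dysferlin Igf1 lay the other way, at 7.33, 7.26 and 7.30 in F66 muscle, against 8.38, 8.25 and 8.04 in injected wt muscle. Of the 19 insulin-like growth factor and Akt genes 6 were higher and 1 lower, and the kinases Akt1, Akt2 and Mtor, at log2 differences of 0.12, -0.02 and -0.11, were not called.

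**Figure D3:**
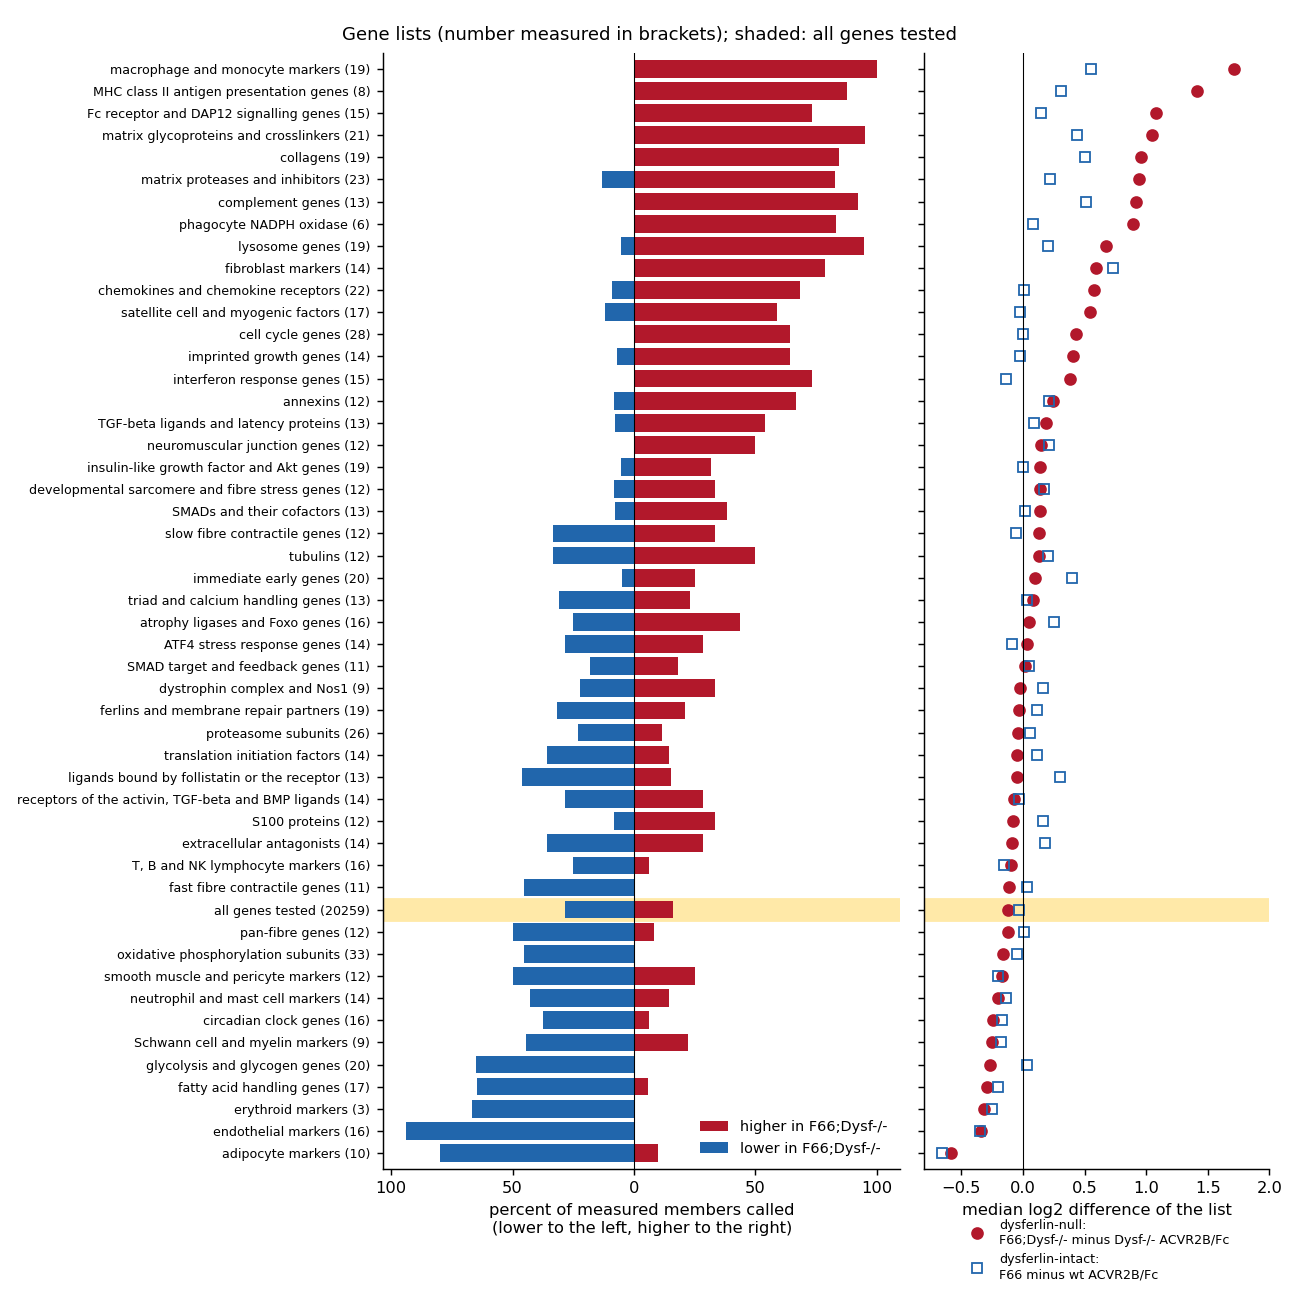
Percent of the measured members of each gene list called higher or lower in F66;Dysf-/- muscle (left) and median log2 difference (right) in dysferlin-null muscle (filled) and between F66 and ACVR2B/Fc-injected wt muscle (open), with all genes tested shaded. The macrophage list stood highest, with 19 of 19 members higher and a median of 1.71, and the adipocyte list lowest, with a median of -0.58.

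Ligands listed as bound by follistatin or by the receptor were not shifted to one side. Of 13 measured, 2 were higher and 6 lower, with a median log2 difference of -0.05, with 3 higher and 3 lower after centring and 2 and 3 after a second quantile normalization. Mstn (myostatin) had log2 levels of 9.58, 9.71 and 9.73 in F66;Dysf-/- muscle, against 10.53, 10.40 and 10.36 in ACVR2B/Fc-injected Dysf-/- muscle, with no overlap. The log2 difference was -0.76 ± 0.10 (SE; adjusted p = 2.92e-05), a 1.69-fold difference, while F66 muscle had 11.22, 11.12 and 11.26 against 10.95, 10.88 and 10.85 in injected wt muscle. Gdf11, its nearest relative, was on the other side, with log2 levels of 8.96, 8.85 and 9.09 in F66;Dysf-/- muscle, against 8.36, 8.41 and 8.54 in ACVR2B/Fc-injected Dysf-/- muscle and a log2 difference of 0.53 ± 0.10 (SE; adjusted p = 0.000716). The study printed larger rises of Gdf11 over wt in F66;Dysf-/- and F66 muscle than the row used here gives. The size of the Gdf11 differences is therefore uncertain. Inhba, the activin A subunit, had log2 levels of 6.96, 6.81 and 6.94 in F66;Dysf-/- muscle, against 6.14, 6.55 and 6.99 in ACVR2B/Fc-injected Dysf-/- muscle. The third injected array reached the F66;Dysf-/- arrays, and the log2 difference of 0.34 ± 0.21 (SE; adjusted p = 0.188) was not called. Inha, the subunit of inhibins, had log2 levels of 7.24, 7.16 and 7.15 in F66;Dysf-/- muscle, against 7.05, 7.13 and 7.52 in ACVR2B/Fc-injected Dysf-/- muscle and was not called, with a log2 difference that changed sign after centring. Bmp5 had 0.87 ± 0.11 (SE; adjusted p = 2.93e-05).

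Receptors and binding proteins had called members on both sides, as had all genes, with 16.2% higher and 28.2% lower. Of 14 receptors 4 were higher and 4 lower, with 5 higher and 1 lower after centring and 3 and 4 after a second quantile normalization. Acvr2b, the receptor from which the injected protein was made, had log2 levels of 7.22, 7.17 and 7.24 in F66;Dysf-/- muscle, against 7.57, 7.45 and 7.69 in ACVR2B/Fc-injected Dysf-/- muscle, a log2 difference of -0.36 ± 0.08 (SE; adjusted p = 0.00202). The TGF-beta receptors Tgfbr1 and Tgfbr2 were higher, with log2 differences of 0.77 and 0.35. Of 14 extracellular antagonists 4 were higher and 5 lower, with 3 lower under either other scaling. Fst rose with Fstl1, a secreted relative, at a log2 difference of 0.97 ± 0.12 (SE; adjusted p = 1.46e-05), and Wfikkn2, which binds myostatin and Gdf11, was lower at -0.61 ± 0.09 (SE; adjusted p = 5.27e-05). Fstl3, the close homologue of follistatin, had -0.06 and was not called.

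Of 13 SMADs and cofactors 5 were higher and 1 lower, with Tgif1, a corepressor, at a log2 difference of 0.34 and Zfyve9, which brings SMADs to the receptor, at -0.34. Smad9 had log2 levels of 6.20, 6.19 and 6.22 in F66;Dysf-/- muscle, against 6.13, 6.16 and 6.30 in ACVR2B/Fc-injected Dysf-/- muscle. Its log2 difference was 0.01 (adjusted p = 0.955) in the row used, and 0.41 to 1.71 in its other, dimmer rows, so the rows of this gene disagree. The study printed larger rises of Smad9 over wt in F66;Dysf-/- and F66 muscle than the row used here gives. Whether Smad9 differed between the groups is therefore uncertain. Of 11 SMAD target and feedback genes 2 were higher and 2 lower, near the shares of 16.2% and 28.2% over all genes. Ccn2 and Tgfbi, matrix proteins induced by TGF-beta, had log2 differences of 1.02 ± 0.21 (SE; adjusted p = 0.00148) and 0.98 ± 0.10 (SE; adjusted p = 2.5e-06), and the inhibitor of DNA binding Id1 had -0.02 and was not called. Among 13 TGF-beta ligands and latency proteins 7 were higher and 1 lower. Cd109, a surface protein that binds TGF-beta, had log2 levels of 7.03, 6.67 and 6.81 in F66;Dysf-/- muscle, against 5.20, 5.29 and 5.38 in ACVR2B/Fc-injected Dysf-/- muscle, and the ligand Tgfb1 had a log2 difference of 0.54 ± 0.06 (SE; adjusted p = 2.44e-06). Tll2, a tolloid protease, was the lower one, at -0.34.

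**Figure D4:**
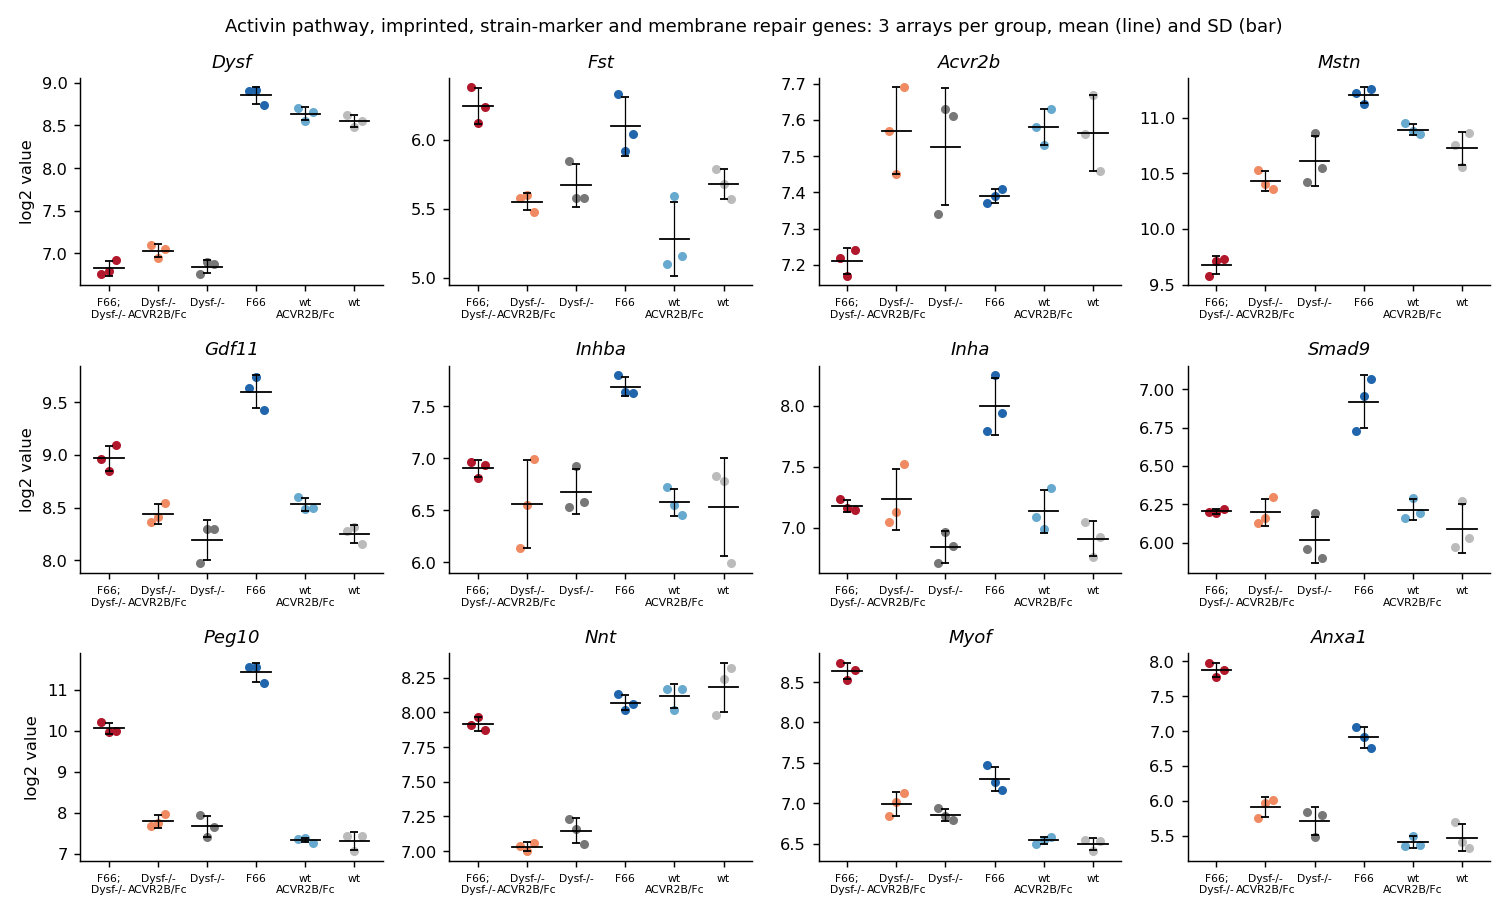
Log2 level (vertical axes) of pathway and repair genes in every array of the 6 groups, with 1 point per array, a line at the mean and a bar for the SD (n = 3). Mstn stood at 9.58 to 9.73 in F66;Dysf-/- muscle, below the injected arrays at 10.36 to 10.53, and Anxa1 stood at 7.78 to 7.98, above the injected arrays at 5.75 to 6.01.

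Of 19 ferlins and partners in membrane repair 4 were higher and 6 lower, with a median log2 difference of -0.03, near the shares of 16.2% and 28.2% over all genes. After centring 5 were higher and 2 lower, and after a second quantile normalization 3 and 5. Myof (myoferlin), a ferlin of myoblasts that also takes part in membrane repair, had log2 levels of 8.73, 8.53 and 8.65 in F66;Dysf-/- muscle, against 6.84, 7.02 and 7.13 in ACVR2B/Fc-injected Dysf-/- muscle, and the log2 difference was 1.64 ± 0.09 (SE; adjusted p = 3.65e-09). Trim72 (MG53), which nucleates repair patches, had 0.56 ± 0.07 (SE; adjusted p = 1.15e-05). Capn3, the muscle calpain, was lower, with log2 levels of 6.85, 6.37 and 6.87 in F66;Dysf-/- muscle, against 7.77, 7.69 and 7.97 in ACVR2B/Fc-injected Dysf-/- muscle and a log2 difference of -1.12 ± 0.18 (SE; adjusted p = 0.000216). Of 12 annexins, membrane-binding proteins that need calcium, 8 were higher and 1 lower. Anxa1 had log2 levels of 7.98, 7.78 and 7.87 in F66;Dysf-/- muscle, against 5.75, 5.97 and 6.01 in ACVR2B/Fc-injected Dysf-/- muscle, and Anxa2, Anxa5 and Anxa4 had log2 differences of 1.07, 1.05 and 1.00 beside 1.97 ± 0.12 (SE; adjusted p = 9.71e-09) for Anxa1. All 4 are also expressed by macrophages and fibroblasts. Of 12 S100 proteins 4 were higher and 1 lower, S100a11, a partner of annexins, at 1.04 ± 0.11 (SE; adjusted p = 2.26e-06), S100a4 at 0.47 and S100a10 at 0.40. Of 12 tubulins 6 were higher and 4 lower, with 2 and 4 lower under the other scalings, and with Tubb6 and Tubb5 at 1.11 ± 0.11 (SE; adjusted p = 2.4e-06) and 0.98 ± 0.11 (SE; adjusted p = 6.1e-06).

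The largest fall was in Nos1, the neuronal nitric oxide synthase that muscle anchors to the dystrophin complex. It had log2 levels of 9.33, 9.43 and 9.64 in F66;Dysf-/- muscle, against 11.39, 10.87 and 11.49 in ACVR2B/Fc-injected Dysf-/- muscle, so every F66;Dysf-/- array lay more than 1 log2 unit below every injected array, and the 9 arrays of mice with intact dysferlin lay at 10.67 to 11.40. The log2 difference was -1.78 ± 0.17 (SE; adjusted p = 8.29e-07), a 3.44-fold difference. Its anchors showed no such step: of 9 dystrophin complex genes 3 were higher, Utrn (utrophin) at a log2 difference of 0.38, Dtna at 0.26 and Dag1 at 0.21, and beside Nos1 only Sgca, at -0.19, was lower. Mylk4, a kinase of the myosin light chain family, had log2 levels of 10.87, 11.17 and 11.12 in F66;Dysf-/- muscle, against 12.32, 12.08 and 12.26 in ACVR2B/Fc-injected Dysf-/- muscle, and Mylk2, the skeletal kinase, had a log2 difference of -0.83 ± 0.06 (SE; adjusted p = 7.13e-08). Chac1, which degrades glutathione, had log2 levels of 8.88, 8.96 and 8.94 in F66;Dysf-/- muscle, against 10.28, 10.26 and 10.35 in ACVR2B/Fc-injected Dysf-/- muscle. Ces1d, a triglyceride hydrolase, Mettl21c, a muscle methyltransferase, Kcna1 and Kcng4, potassium channel subunits, Smox, which oxidizes spermine, and Ppp1r1a, an inhibitor of protein phosphatase 1, had log2 differences of -1.45, -1.39, -1.25, -1.23, -1.20 and -1.27. Htra4, a serine protease, had log2 levels of 7.33, 7.23 and 7.25 in F66;Dysf-/- muscle, against 8.64, 8.77 and 8.59 in ACVR2B/Fc-injected Dysf-/- muscle, and 9.56, 9.70 and 9.24 in untreated Dysf-/- muscle. Apol6, Myo5c, Odf3l2, Gsdmcl1 and Tas2r124 completed the 15 largest falls, with log2 differences of -1.34, -1.28, -1.20, -1.26 and -1.32.

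Metabolic genes of the fibre were lower in the deposited values, by small steps. Of 20 genes of glycolysis and glycogen 0 were higher and 13 lower, with a median log2 difference of -0.27, and 7 were lower after centring and 17 after a second quantile normalization. Pfkfb3, which sets the level of the main activator of glycolysis, had log2 levels of 8.81, 8.49 and 8.58 in F66;Dysf-/- muscle, against 9.96, 9.54 and 9.49 in ACVR2B/Fc-injected Dysf-/- muscle. Fbp2, the muscle fructose bisphosphatase, Phka1, a subunit of phosphorylase kinase, and Hk2, the muscle hexokinase, had log2 differences of -0.86 ± 0.12 (SE; adjusted p = 5.6e-05), -0.76 ± 0.06 (SE; adjusted p = 2.04e-07) and -0.63 ± 0.10 (SE; adjusted p = 0.000226). Of 17 fatty acid genes 11 were lower and 1 higher, with 5 and 12 lower under the other scalings. Angptl4, an inhibitor of lipoprotein lipase, was the higher one, at 0.88 ± 0.18 (SE; adjusted p = 0.00153). Of 33 subunits of oxidative phosphorylation 15 were lower and 0 higher. Their median was only -0.16, beside -0.12 over all genes, of which 28.2% were lower. The count of lower subunits was 5 after centring and 24 after a second quantile normalization. The list median was then -0.03 and -0.27, beside 0.02 and -0.06 over all genes, so how many subunits fell rests on the scaling.

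Contractile genes differed by small steps, the slow ones to both sides. Of 12 pan-fibre genes 6 were lower and 1, Des (desmin), was higher, with 4 and 9 lower under the other scalings. Of 11 fast fibre genes 5 were lower and 0 higher, with 1 and 6 lower under the other scalings. The median log2 differences of these lists, -0.12 and -0.11, stood beside -0.12 over all genes, of which 28.2% were lower. After centring the medians were 0.01 and 0.03 beside 0.02, and after a second quantile normalization -0.26 and -0.23 beside -0.06. The troponin subunits Tnni2 and Tnnt3 had log2 differences of -0.32 and -0.20. Slow fibre genes lay on both sides, 4 higher and 4 lower, with 4 lower under either other scaling. Casq2 and Tpm3, the calsequestrin and tropomyosin of slow fibres, were higher at 0.84 ± 0.10 (SE; adjusted p = 9.69e-06) and 0.81 ± 0.11 (SE; adjusted p = 5.48e-05), while the slow myosin light chains Myl3 and Myl2 were lower at -0.91 ± 0.17 (SE; adjusted p = 0.000833) and -0.67 ± 0.15 (SE; adjusted p = 0.00314). Of 13 genes of triads and calcium handling 3 were higher and 4 lower, again near the shares over all genes, with 4 higher and 3 lower after centring and 2 and 4 after a second quantile normalization. Among them were Jph2, which holds the triad membranes together, at -0.48 and Cacng1, a subunit of the calcium channel, at 0.48. Of 16 atrophy genes 7 were higher and 4 lower, with 3 and 7 lower under the other scalings. Cdkn1a, the cell cycle inhibitor p21, led with 1.07 ± 0.13 (SE; adjusted p = 1.61e-05), and the atrophy ligases Fbxo32 and Trim63 had -0.41 and -0.36 and were not called.

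Vessel and fat genes were lower. Of 16 endothelial markers 15 were lower and 0 higher, with a median log2 difference of -0.34, and 6 were lower after centring and 15 after a second quantile normalization. Kdr, the main receptor of VEGF, had log2 levels of 7.71, 7.49 and 7.44 in F66;Dysf-/- muscle, against 8.30, 8.42 and 8.09 in ACVR2B/Fc-injected Dysf-/- muscle. Flt1, the other VEGF receptor, and Vegfa, the growth factor that fibres make for them, had log2 differences of -0.61 ± 0.08 (SE; adjusted p = 4.02e-05) and -0.55 ± 0.07 (SE; adjusted p = 1.25e-05). Of 10 adipocyte markers 8 were lower and 1 higher, with a median of -0.58 and with 4 and 7 lower under the other scalings. Retn (resistin), Cidec and Plin1, both on the fat droplet, had log2 differences of -0.95 ± 0.18 (SE; adjusted p = 0.000708), -0.94 ± 0.16 (SE; adjusted p = 0.00037) and -0.77 ± 0.09 (SE; adjusted p = 1.2e-05). The mean log2 level of the adipocyte markers was 6.88 to 6.97 in F66;Dysf-/- arrays and 7.33 to 7.58 in arrays of injected Dysf-/- muscle.

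Smaller lists of other cells and processes were mixed, beside 16.2% higher and 28.2% lower over all genes, and several lay near those shares. Smooth muscle and pericyte markers were higher for 3 and lower for 6 of 12, and lower for 3 and 5 under the other scalings, with Acta2 (smooth muscle actin) at a log2 difference of 0.68 ± 0.08 (SE; adjusted p = 1.45e-05) and the pericyte genes Kcnj8 and Rgs5 at -0.65 and -0.42. Of 9 Schwann cell genes 2 were higher and 4 lower, with 4 lower under either other scaling and the myelin genes Gjc3 and Cldn19 at -0.64 and -0.64. Among 16 clock genes 1 was higher and 6 lower, with 1 and 8 lower under the other scalings and Hlf at -0.72. Of 20 immediate early genes 5 were higher and 1 lower, and Fos and Jun had 0.06 and -0.03 and were not called. Of 14 genes of the ATF4 stress response 4 were higher and 4 lower, with 1, Chac1, lower after centring and 3 after a second quantile normalization. Translation factors (2 higher and 5 lower of 14) and proteasome subunits (3 and 6 of 26) did not move to one side under all scalings, with 2 and 0 lower after centring and 7 and 7 after a second quantile normalization. Of 3 erythroid markers 2 were lower, Alas2 at -0.70 and Slc4a1 at -0.32.

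Nnt, the mitochondrial transhydrogenase, differed between the dysferlin-null groups. Its mean log2 level was 7.92 in F66;Dysf-/- muscle, against 7.03 in ACVR2B/Fc-injected Dysf-/- muscle, with 7.23, 7.16 and 7.05 in untreated Dysf-/- muscle, while the 9 arrays of mice with intact dysferlin lay at 7.98 to 8.32. The log2 difference between the groups was 0.89 ± 0.08 (SE; adjusted p = 5.37e-07), without overlap. Part of the gene is deleted in the C57BL/6J substrain, and the substrain of each mouse is not given in the sources used here, so a difference of background genes between the dysferlin-null groups cannot be told apart from that of the agents.

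The same pair of agents was set against each other in mice with intact dysferlin, on 6 other arrays. Between F66 and ACVR2B/Fc-injected wt muscle limma called 2915 of 20259 genes (14.4%), 1691 higher (8.35%) and 1224 lower (6.04%), and the arrays did not overlap for 35.1% of genes. Of these, 1664 were called in the same direction in dysferlin-null muscle, 57.1% of the intact calls and 18.5% of the null calls, and 178 were called in opposite directions. Across genes, which are not independent replicates, the differences had a Pearson r of 0.483 and a Spearman rho of 0.452. Endothelial and adipocyte genes had median log2 differences of -0.34 and -0.58 in dysferlin-null muscle and -0.35 and -0.66 in intact muscle. Macrophage markers had a median of 1.71 in dysferlin-null and 0.55 in intact muscle, collagens 0.96 and 0.50, fibroblast markers 0.59 and 0.73, cell cycle genes 0.43 and 0.00, myogenic factors 0.54 and -0.02, and interferon response genes 0.38 and -0.14.

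The difference between both differences was tested in the same fit. Limma called 3085 genes (15.2%), 1537 with the larger value in dysferlin-null muscle (7.59%) and 1548 with the smaller (7.64%). By that test 17 of the 19 macrophage markers had the larger difference in dysferlin-null muscle and 1, Cd163, the smaller, as had 18 of 28 cell cycle genes, 9 of 17 myogenic factors, 10 of 15 interferon response genes, 15 of 19 lysosome genes and 9 of 19 collagens the larger. Of the 16 endothelial markers 2 had the larger and 1 the smaller value. Mmp12 had a log2 difference of 2.95 in dysferlin-null and -0.01 in intact muscle, where its mean log2 levels of 4.55 in F66 and 4.56 in injected wt muscle lay under the array medians. The difference between both was 2.96 ± 0.20 (SE; adjusted p = 6.73e-07). Cxcl16, Mmp13, Aoah, an enzyme that inactivates endotoxin, Stap1, a signalling adaptor, and Gpr65, an acid-sensing receptor, likewise had log2 differences of -0.07, -0.20, -0.00, -0.01 and -0.08 in intact muscle, against 2.25, 1.85, 2.08, 1.98 and 1.90 in dysferlin-null muscle.

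Other lists had more members with the smaller value in dysferlin-null muscle. These were 12 of 20 genes of glycolysis and glycogen, with 0 larger, and 5 of 13 ligands, with 0 larger, beside 5 of 16 atrophy genes and 5 of 14 translation factors, with 1 larger in each. Over all genes, 1548 calls had the smaller value, with 909 after centring and 1675 after a second quantile normalization. The list counts of this test were not made under those scalings. Npr3, the clearance receptor of natriuretic peptides, had log2 levels of 7.93, 8.11 and 8.28 in F66;Dysf-/- muscle and 8.28, 7.99 and 8.25 in ACVR2B/Fc-injected Dysf-/- muscle, and 10.04, 10.18 and 10.00 in F66 muscle beside 8.18, 8.13 and 8.25 in injected wt muscle. The difference between both differences was -1.95 ± 0.14 (SE; adjusted p = 9.83e-07). Mt2, a metallothionein, had a log2 difference of 0.79 in dysferlin-null and 2.72 in intact muscle, Peg10 2.26 and 4.09, and Nos1 -1.78 and 0.13. Opn1mw, Cdh4, Ppl, Ppp1r3c and the noncoding Srrm4os had log2 differences between both differences of -2.10, -1.90, -1.79, -1.63 and -1.84. Mstn belonged here too, at -1.07 ± 0.14 (SE; adjusted p = 0.000138). Opposite calls in both backgrounds were shown by Igf1, with log2 differences of 0.68 in dysferlin-null and -0.93 in intact muscle, and by Cxcl9, Aldh1a1 and Fgf6, at 0.93 and -0.78, -0.72 and 0.71, and -0.51 and 0.79, all 4 chosen after their values were seen.

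**Figure D5:**
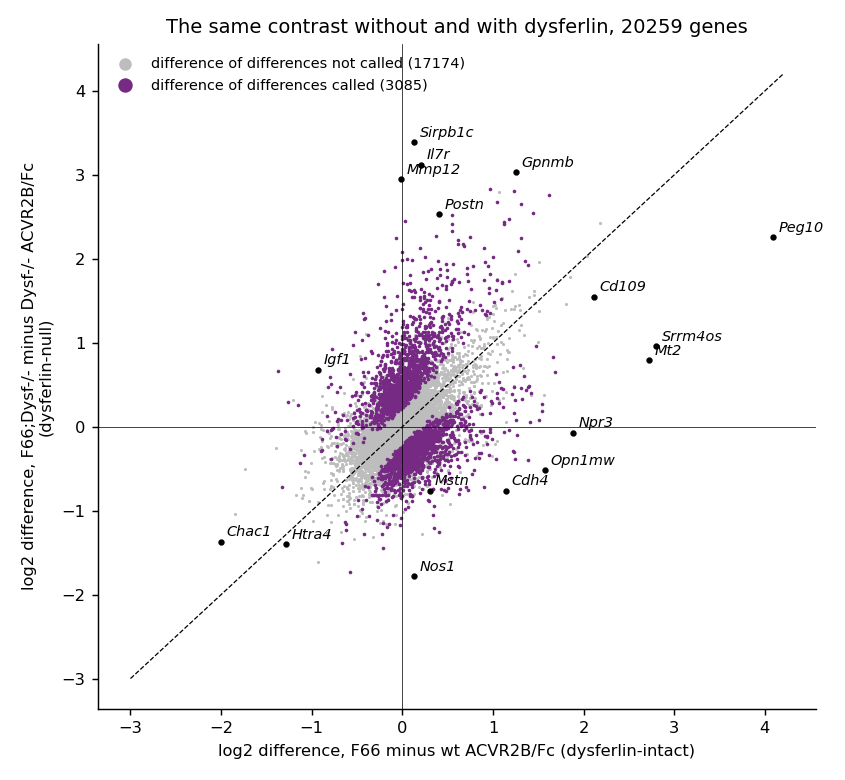
Log2 difference of each gene in dysferlin-null muscle (F66;Dysf-/- minus ACVR2B/Fc-injected Dysf-/-, vertical axis) against that in muscle with intact dysferlin (F66 minus ACVR2B/Fc-injected wt, horizontal axis), with the genes whose 2 differences departed from each other coloured, a dashed line where both are equal and named genes in black. Mmp12 and Il7r stood high at a horizontal value near 0, and Peg10 stood farthest to the right at 4.09.

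Each group was also read against untreated Dysf-/- muscle, with the 3 Dysf-/- arrays shared by both comparisons. In F66;Dysf-/- muscle limma called 6808 genes (33.6%), 3078 higher (15.2%) and 3730 lower (18.4%). In ACVR2B/Fc-injected Dysf-/- muscle it called 5 genes (0.0247%), 3 higher (0.0148%) and 2 lower (0.00987%), with 3805 at an unadjusted p under 0.05. The 5, chosen after their values were seen where they lie outside the rule, were 4931415C17Rik, C530025M11Rik and Tnnt2, higher, and Arl1 and Htra4, lower. This count was unstable, and reached 574 without the first injected replicate and 0 without the second or the third. All 15 of the largest rises, and all of the 15 largest falls but Gsdmcl1, differed from untreated Dysf-/- muscle by more in F66;Dysf-/- than in injected muscle. The log2 difference from Dysf-/- was 3.34 in F66;Dysf-/- and 0.31 in injected muscle for Gpnmb, 3.12 and 0.36 for Cd68, 2.71 and 0.18 for Postn, 1.72 and 0.16 for Myog, -1.67 and 0.11 for Nos1 and -0.94 and -0.18 for Mstn. Other leading genes lay further from Dysf-/- in injected muscle without a call there, with 3.22 in F66;Dysf-/- and 0.75 in injected muscle for C3ar1, 3.00 and 0.56 for Cybb, 2.37 and 0.58 for Sln and 1.66 and 0.61 for Igf2. Mymk and Mki67 had 2.47 and 2.23 in F66;Dysf-/- muscle and 0.67 and 0.59 in injected muscle, where neither was called (adjusted p = 0.102 and 0.084). The medians of the macrophage list were 2.02 and 0.29, of the collagens 0.96 and 0.17, of the myogenic factors 0.50 and 0.05 and of the endothelial markers -0.33 and 0.06. Few genes lay on opposite sides of Dysf-/- by much. Zfp808, a zinc finger protein, had a log2 difference from Dysf-/- of 0.58 in F66;Dysf-/- (adjusted p = 0.0449) and -0.55 in injected muscle (adjusted p = 0.196), and Ccdc30, Gsdmcl1, Igbp1b, Olfr1362 and Tas2r124 were not called against Dysf-/- in either group.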

How the data were processed

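RNA was measured in the quadriceps of male mice on Affymetrix Mouse Exon 1.0 ST arrays, 18 in all, with 3 biological replicates in each of 6 groups. The values that the authors deposited are log2 values, 1 per array for 115830 rows, made with RMA in Partek against mm9 according to the submitters' processing notes (versions not given in the sources used here). RMA includes a background correction and a quantile normalization of the probes, so a change shared by most genes is partly removed, and dim rows understate differences. No detection calls were used. All columns of the table were mapped to a sample by its label (columns not mapped: 0).

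Of the rows, 25539 had 1 gene symbol in the platform annotation, 2300 had several and 87991 were not listed. Each of 20259 genes was represented by its single-symbol row of highest mean level across the 18 arrays. The reference build differs from that of the arrays, so array coordinates are not given. A limma fit (lmFit, contrasts.fit and eBayes, limma 3.58.1 in R 4.3.3) with 6 group means on all 18 arrays gave each contrast, with 12 residual and 3.2 prior degrees of freedom, with a Benjamini-Hochberg adjustment over all genes and a threshold of 0.05. An exact permutation test of 3 against 3 arrays cannot go below 0.1 (two-sided), so single genes rest on the shared variance of this fit. Intervals and errors are those of the fit, and the number of arrays limits the precision. Correlations between arrays were 0.970 to 0.981 within the groups compared and 0.961 to 0.967 between them, and no 2 arrays held identical values. On simulated data made from these arrays for F66;Dysf-/- against ACVR2B/Fc-injected Dysf-/- over 20259 genes, 82.1%, 94% and 98.5% of genes changed by 0.5, 1 and 2 on the log2 scale were called, 1.08% of calls were unchanged genes, and 0 genes were called with no change set. The simulation changed few genes, drew each gene independently and set no shift shared across an array. It therefore cannot speak to the calls that depend on the scaling.

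Named genes were the 15 largest rises and 15 largest falls among called genes with no overlap of the arrays and no predicted name, up to 4 called members with the largest difference in each list and any member a sentence on its role needed, 17 genes of the pathway, repair and strain, the 10 largest of each sign for the difference of differences, and 6 genes on opposite sides of Dysf-/-. The members, lists and rules were chosen with earlier results of these data known. Lists were described by counts and medians and given no test. Alternatives were the compared groups alone, the methods' t-test, the replicate number as a block, other scalings, the mean of a gene's rows, a filter on dim genes, a trended and robust prior, all rows, and leaving out each replicate. Those for the comparisons with Dysf-/- were chosen after seeing the data. Promoters came from RefSeq tables. Tables and figures were made with Python 3.11.15, pandas 2.3.3 and matplotlib 3.10.9.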

Additional observations from a re-analysis of the deposited data

Results flagged for a closer look

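The difference between F66;Dysf-/- and ACVR2B/Fc-injected Dysf-/- muscle departed from that between F66 and ACVR2B/Fc-injected wt muscle in 3085 genes by limma's test of the difference itself. Among the genes named, those with the larger value in dysferlin-null muscle, as log2 differences between both differences, were Sirpb1c 3.25, Mmp12 2.96, Il7r 2.92, C1qtnf3 2.42, Cxcl16 2.32, Postn 2.12, Aoah 2.08, Mmp13 2.05, Gpr65 1.99, Stap1 1.99, Nnt 0.94, Myof 0.88 and Anxa2 0.42. Those with the smaller value were Opn1mw -2.10, Npr3 -1.95, Mt2 -1.93, Nos1 -1.91, Cdh4 -1.90, Srrm4os -1.84, Peg10 -1.82, Ppl -1.79, Ppp1r3c -1.63, Odf3l2 -1.55, Mstn -1.07, Inha -0.90, S100a4 -0.84, Smad9 -0.70, S100a10 -0.64, Gdf11 -0.54 and Dysf -0.42. The values of Smad9 and Gdf11 are uncertain, since the study printed larger rises of both than the rows used here give.

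Rows without a single gene symbol stand outside the comparison by gene. In a fit of all rows, 4596 of 90291 such rows (5.09%) were called between F66;Dysf-/- and ACVR2B/Fc-injected Dysf-/- muscle, 2404 higher and 2192 lower.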

How the results depend on the processing

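Between F66;Dysf-/- and ACVR2B/Fc-injected Dysf-/- muscle the 9002 calls came to 6671 to 8478 when 1 replicate was left out, to 9357 with the replicate number as a block, 8456 with both groups alone, 7212 without dim genes and 9114 over all rows (52.7% higher). The methods' t-test called 5769 after Benjamini-Hochberg (2390 higher) and 371 at p under 0.01 and over 2-fold (339 higher). Between F66 and ACVR2B/Fc-injected wt muscle the 2915 calls (58% higher) came to 3244 after centring (82.7% higher), 3234 with the block, 1905 with the groups alone, 761 and 116 by the methods' t-test at those thresholds, and 1906 to 2437 with 1 replicate left out, of which 1906 without the second injected and 1922 without the second F66 replicate. The 3085 calls for the difference of differences came to 1719 over all rows, 2628 after centring (65.4% higher, against 49.8%), 3319 with the block and 2194 to 2891 with 1 replicate left out. F66;Dysf-/- minus Dysf-/- gave 5171 to 5939 with 1 replicate left out, 7207 with the block and 5626 after centring. ACVR2B/Fc-injected Dysf-/- minus Dysf-/- gave 5 calls, 87 with the block, 0 after centring, 0 after a second quantile normalization, 21 with a trended prior and 0 to 574 with 1 replicate left out. Leaving out the second or the third injected or the first or the second Dysf-/- replicate gave 0, and leaving out the third Dysf-/- replicate gave 1. At an unadjusted p under 0.05 the deposited values gave 3805.

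The alternatives were read for 232 of the genes named, without most of those given above as not called. Most of the 232 were chosen because they were called, so the 227 called among them follow from that choice. Of these 227, 225 kept their direction in every alternative and 179 also kept the call, the 2-fold threshold left aside. Calls were lost without 1 replicate for Dysf (the first or the second F66;Dysf-/-, the first or the third injected), Cdh4 (the first or the second F66;Dysf-/-, the second or the third injected), Mt2 (the second F66;Dysf-/-, the third injected), S100a10 (the second F66;Dysf-/-, the first injected) and Rgs5 (the third F66;Dysf-/-). The log2 difference changed sign for Inha (0.09 after centring, -0.14 to 0.10 with 1 replicate left out), Smad9 (-0.03 to 0.06 with 1 replicate left out), Npr3 (0.07 after centring, -0.16 to 0.02 with 1 replicate left out), Cd3d (0.06) and Eif2s2 (0.09), the last pair in the mean of a gene's rows. Except where the alternative itself tests fewer arrays or genes, the cause was not tested. Gene by gene, same-numbered arrays of the groups compared did not deviate together (r of 0.00, 0.05 and 0.01), so the numbers were not taken as pairs. Such a correlation over genes cannot show a shift shared by a whole array. The second array had the highest median of all rows in both groups, at 5.31 in F66;Dysf-/- and 5.44 in injected Dysf-/- muscle.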
